A study of Mus musculus with 14 samples.

Results

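The 33 genes described here are genes that endothelial cells, the cells lining blood vessels, transcribe strongly. They were taken by name: each was read from the probe sets annotated to its symbol and to no other gene. All 33 were measured, on 59 probe sets out of the 34958 that carry 1 gene symbol (45101 in the table), and all 33 lay above the filter on dim signals, among 12260 genes kept of 18194. They fall into 5 genes of cell junctions and adhesion, 9 of surface and secreted identity, 4 receptor tyrosine kinases, 3 of Notch and apelin signalling, 7 transcription factors and 5 of transport and caveolae.

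RNA came from the left ventricle of male C57BL/6 mice and was hybridised to 14 Affymetrix Mouse430_2 arrays. The mice were wild type (WT) or carried a knockout (KO) of Hsp22, a small heat shock protein also known as H11 kinase and encoded by Hspb8. Basal hearts, with no pressure overload, gave 3 WT and 3 KO arrays. Hearts after 3 days of transverse aortic constriction (TAC), a surgical narrowing of the aorta that raises the pressure load on the left ventricle, gave 4 WT and 4 KO arrays. The sources used here give neither the age of the mice nor the deleted part of the gene. No group is labelled as sham-operated. Array names in the labels put the basal and the TAC arrays in different runs, so pressure, surgery and run cannot be told apart in any comparison of TAC with basal hearts; the genotypes are compared within a run, although basal KO 3 carries a different run day from its fellow basal arrays. The labels leave unsaid whether arrays stand for separate animals, so p-values measure only the spread between these samples. Their number, 3 or 4 in a group, limits the precision.

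Endothelial cells form a single layer that seals the vessel, sets its permeability and senses the flow of blood. VEGF and angiopoietin ligands act on their receptor tyrosine kinases, apelin and Notch signals set capillary growth and arterial fate, and transcription factors of the ETS, SOX and KLF families maintain the endothelial program. In the heart, capillary endothelium also hands fatty acids to the muscle. A ventricle holds many other cell types, so in this bulk RNA fewer endothelial cells and less RNA of a gene per cell cannot be told apart.

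Hspb8 read at least 11.09 in every WT array and at most 5.13 in every KO array on one of its probe sets, and at least 10.26 against at most 5.92 on another, as the genotype labels say. Its remaining probe set, of the cross-hybridising x_at class (its probes may match further transcripts), differed less: 9.66 to 10.01 in WT against 8.42 to 8.84 in KO in basal hearts, and 8.79 to 9.32 against 8.20 to 8.73 after TAC, so that every KO array lay below every WT array within each condition. The WT array TAC WT 3 stood apart from the other TAC WT arrays: its mean over 8 macrophage markers was 11.28, against 9.57 to 9.95 in those. Counts of endothelial, signalling and marker genes are therefore also given without it where they differ.

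All values below are log2 signals of the probe set with the highest mean for its gene, a difference of 1 being a 2-fold change, and SE is the standard error from the model. Genes were called at an adjusted p under 0.05 from limma over all 12260 genes. Levels are compared between arrays for 1 gene, never between genes.

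The promoters of the 4 members that fell most in both genotypes (Klf2, Aqp1, Tie1 and Rasip1) are printed first, followed by those of Tek and Kdr, receptor genes that were called in neither genotype. Each is the 250 bases before an annotated start, 5′ to 3′, from RefSeq (GRCm38.p6); a promoter entry was found for 18 of the 33 members. Capitals mark matches on either strand, searched as AGGAAG for ETS-type factors, as GATAAG for factors of the GATA family, as ACAATG for SOX-type factors, as CACCC for KLF-type factors and as the MEF2 consensus.
Klf2 (chr8:72318812-72319061, plus strand): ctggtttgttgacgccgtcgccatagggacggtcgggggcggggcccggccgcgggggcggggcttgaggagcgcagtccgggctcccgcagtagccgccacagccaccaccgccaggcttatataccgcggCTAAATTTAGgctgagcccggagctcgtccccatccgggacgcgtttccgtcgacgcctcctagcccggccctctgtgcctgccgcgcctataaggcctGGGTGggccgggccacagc
Aqp1 (chr6:55336049-55336298, plus strand): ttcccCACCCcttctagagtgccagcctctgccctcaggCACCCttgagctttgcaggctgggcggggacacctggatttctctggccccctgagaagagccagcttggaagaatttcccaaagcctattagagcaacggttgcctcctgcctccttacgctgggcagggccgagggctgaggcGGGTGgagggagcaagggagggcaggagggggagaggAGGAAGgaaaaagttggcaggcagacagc
Tie1 (chr4:118489850-118490099, minus strand): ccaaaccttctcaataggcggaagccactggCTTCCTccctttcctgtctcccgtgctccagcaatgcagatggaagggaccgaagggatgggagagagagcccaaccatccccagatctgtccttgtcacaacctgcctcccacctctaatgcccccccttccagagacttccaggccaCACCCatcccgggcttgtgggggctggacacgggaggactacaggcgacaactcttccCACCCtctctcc
Rasip1 (chr7:45627287-45627536, plus strand): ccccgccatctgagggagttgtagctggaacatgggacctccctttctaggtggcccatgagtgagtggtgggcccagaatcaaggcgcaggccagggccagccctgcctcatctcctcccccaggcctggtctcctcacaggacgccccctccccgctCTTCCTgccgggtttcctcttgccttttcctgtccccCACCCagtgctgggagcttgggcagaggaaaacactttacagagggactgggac
Tek (chr4:94739039-94739288, plus strand): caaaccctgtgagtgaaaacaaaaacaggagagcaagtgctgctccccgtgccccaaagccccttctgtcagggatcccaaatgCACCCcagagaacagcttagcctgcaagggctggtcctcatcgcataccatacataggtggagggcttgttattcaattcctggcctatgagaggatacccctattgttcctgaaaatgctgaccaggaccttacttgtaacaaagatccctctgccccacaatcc
Kdr (chr5:75978456-75978705, minus strand): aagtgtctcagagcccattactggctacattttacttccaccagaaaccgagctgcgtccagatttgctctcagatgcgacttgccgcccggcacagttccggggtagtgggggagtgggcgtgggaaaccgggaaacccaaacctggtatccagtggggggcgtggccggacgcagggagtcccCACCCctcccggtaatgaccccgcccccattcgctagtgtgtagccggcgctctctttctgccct
Aqp1, Tie1 and Rasip1 hold the ETS-type letters, which 29.5% of all 32851 promoters of this length hold. Of the 9 members lower in both genotypes that have an entry, 6 hold them (Aqp1, Egfl7, Eng, Rasip1, Robo4 and Tie1), as do 3 of the 7 called in neither (Emcn, Flt1 and Notch4). The KLF-type letters stand in 8 of those 9 and in 5 of those 7, beside 52% of all promoters. Klf2 holds the MEF2 consensus, found in 0.508% of all promoters. The GATA letters were in the promoters of none of these 16 genes and the SOX-type letters only in Notch4, against 6.55% and 10.7% of all promoters. A gene was counted when any of its promoter entries held the letters, and Egfl7 has 3 entries and Cav1 has 2. The shares of all promoters count single entries. A match describes letters and shows no binding, and the absence of one says only that these letters are not in this window.

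After TAC, most of the endothelial genes that passed the test were lower. In WT hearts 18 of the 33 passed, of which 16 fell and 2 rose, where 50.7% of all genes passed (23.8% lower and 26.9% higher). In KO hearts 16 passed, of which 15 fell and 1 rose, where 44.5% of all genes passed (21.8% lower and 22.7% higher). The members' median difference was log2 -0.35 in WT and -0.39 in KO, where the median over all genes was 0.02 and -0.02. Without TAC WT 3, 17 members were called in WT, 14 lower and 3 higher, where all genes gave 19.6% lower and 24% higher. In KO 19 were then called, 18 lower and 1 higher, where all genes gave 24.4% and 25.7%. The members' WT median without TAC WT 3 was -0.22, against 0.02 over all genes. That array enters the KO comparison only through the shared spread.

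The size of the WT median also moved with the processing. It was -0.20 with arrays weighted by their fit, where 13 members were called lower and 5 higher in WT (19 and 3 in KO). Over all genes that fit called 6432 in WT (53.7% of them higher) and 7075 in KO (50.5% higher). After quantile normalisation the WT median was -0.53, with 19 members lower and 1 higher (18 and 1 in KO). Quantile normalisation called 6252 of all genes in WT (41.1% higher) and 5715 in KO (43.3% higher). The WT median over all genes was 0.02 with weights and -0.10 after quantile normalisation. In KO the members' median was -0.39 and -0.48 under those settings. With each array centred on the members' own median, the median difference was -0.29 in WT and -0.15 in KO. That centring takes out a shift the members share, so these values cannot measure it.

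The same 14 genes fell in both genotypes: Esam, Cldn5, Eng, Vwf, Egfl7, Robo4, Ptprb, Rasip1, Tie1, Dll4, Sox7, Sox18, Klf2 and Aqp1. They make up 14 of the 16 that fell in WT and 14 of the 15 in KO, and 15.6% of all genes were called lower in both. Pecam1 and Gpihbp1 passed in WT and not in KO, and Klf4 in KO and not in WT. No member passed the test of a difference between the genotypes in its response. In KO, 19 members had every TAC array below every basal array and 1 had every TAC array above, where all genes give 26.7% and 27.7%. In WT these counts were 14 and 2, where all genes give 24.3% and 25.5%, and 15 and 3 without TAC WT 3, where all genes give 26.1% and 27.4%.

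**Figure D1:**
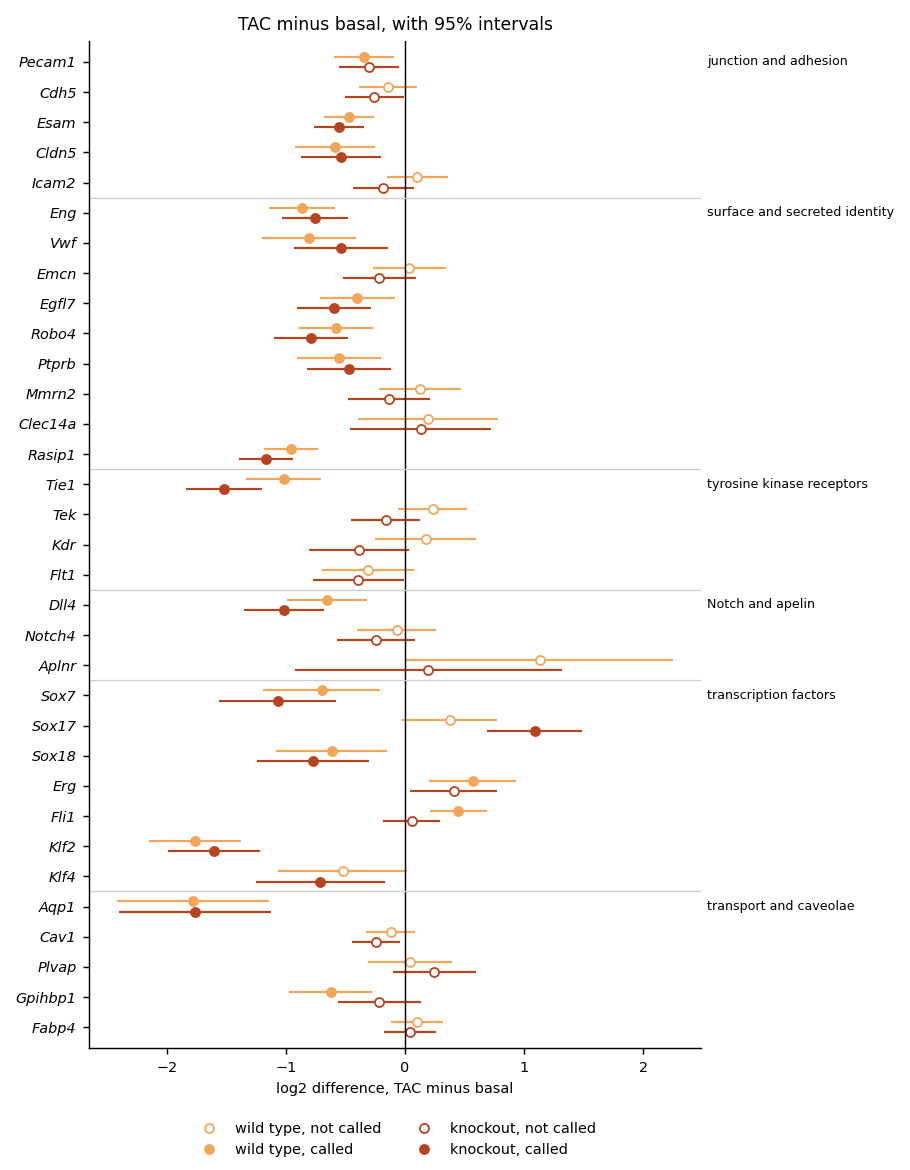
Log2 difference of TAC against basal hearts (x axis) for each of the 33 endothelial genes (y axis, by role) in WT and KO, with bars for the 95% interval of the limma model and filled points for genes called. Klf2 and Aqp1 lie farthest to the left in both genotypes, and Sox17 in KO lies to the right at 1.09.

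Of the 5 junction and adhesion genes, 3 fell in WT and 2 in KO. Esam (chr9:37528089-37538319), an adhesion molecule of endothelial tight junctions, read 10.68, 10.72 and 10.66 in basal WT and 10.30, 10.25, 10.07 and 10.26 after TAC. In KO it read 10.59, 10.48 and 10.59 in basal hearts and 10.20, 9.93, 9.97 and 9.88 after TAC. Every TAC array lay below every basal array of its genotype, and Esam fell 1.38-fold in WT (log2 -0.47, SE 0.10, adjusted p = 0.00208) and 1.47-fold in KO (log2 -0.56, adjusted p = 0.00104).

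Cldn5 (chr16:18776847-18778262), the claudin of endothelial tight junctions, read 8.69, 8.86 and 8.43 in basal WT and 7.87, 8.40, 7.95 and 8.07 after TAC. It fell 1.5-fold in WT (adjusted p = 0.00778) and 1.45-fold in KO (adjusted p = 0.0141). The highest TAC WT array (8.40) came close to the lowest basal WT array (8.43), and the groups did not overlap. Without basal KO 1 the KO call ended (adjusted p = 0.0536), and with arrays weighted by their fit the WT call ended (log2 -0.35, adjusted p = 0.0623).

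Pecam1, the adhesion molecule CD31, read 9.83, 9.85 and 9.85 in basal WT and 9.48, 9.41, 9.74 and 9.35 after TAC. It fell by only 0.35 on the log2 scale in WT (1.27-fold, adjusted p = 0.0246), and the KO difference of -0.30 did not pass (adjusted p = 0.0510). Both sit near the threshold. The WT call ended without any 1 of basal WT 1, basal WT 2, basal WT 3, TAC WT 2 or TAC WT 4 (adjusted p = 0.0524 to 0.0684), and the KO difference passed without TAC WT 3 or TAC KO 4 (adjusted p = 0.0278 to 0.0362).

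Cdh5, VE-cadherin of the adherens junction, and Icam2, a ligand for leukocyte integrins, were called in neither genotype. Cdh5 differed by -0.14 in WT (adjusted p = 0.305) and -0.26 in KO (adjusted p = 0.0800) on its brighter probe set. A dimmer Cdh5 probe set, at a mean of 6.18 over all arrays, was lower by -1.27 in WT and -1.20 in KO (adjusted p = 6.4e-05 and 1.53e-04 over all probe sets), so the 2 readings of Cdh5 disagree in size. Icam2 differed by 0.10 in WT (adjusted p = 0.484) and by -0.18 in KO (adjusted p = 0.222).

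Of the 9 surface and secreted identity genes, 6 fell in both genotypes and 3 (Emcn, Mmrn2 and Clec14a) passed in neither. Rasip1 (chr7:45627537-45639092), a Ras-interacting protein that endothelial cells need to open a vessel lumen, read 8.16, 8.48 and 8.43 in basal WT and 7.32, 7.55, 7.40 and 7.33 after TAC. The KO arrays gave 8.35, 8.32 and 8.18 in basal hearts and 7.08, 7.10, 7.02 and 7.26 after TAC. The TAC arrays of both genotypes lay well below all 6 basal arrays. Rasip1 fell 1.94-fold in WT (log2 -0.96, SE 0.11, adjusted p = 7.52e-05) and 2.25-fold in KO (log2 -1.17, adjusted p = 5.47e-05).

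Vwf (chr6:125552948-125686679), von Willebrand factor, the clotting protein stored in endothelial granules, read 9.38, 9.59 and 9.19 in basal WT and 8.90, 8.65, 8.08 and 8.69 after TAC. In KO, its values were 9.91, 9.73 and 9.63 in basal hearts and 9.50, 8.96, 9.30 and 9.11 after TAC. In both conditions every KO array lay above every WT array. Vwf fell 1.75-fold in WT (log2 -0.81, SE 0.18, adjusted p = 0.00332) and 1.45-fold in KO (log2 -0.54, adjusted p = 0.0295). The KO call ended without any 1 of basal KO 1, basal KO 2, TAC KO 2 or TAC KO 4 (adjusted p = 0.0652 to 0.105).

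Eng (chr2:32646595-32682669), endoglin, a co-receptor for ligands of the TGF-beta family, read 10.91, 10.88 and 10.67 in basal WT and 10.08, 10.15, 9.95 and 9.64 after TAC. It fell 1.82-fold in WT (adjusted p = 2.86e-04) and 1.69-fold in KO (adjusted p = 8.94e-04) on this probe set. A second probe set of Eng differed by -0.01 in WT and 0.04 in KO (adjusted p = 0.960 and 0.855 over all probe sets).

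Robo4 (chr9:37401902-37414023), a guidance receptor that stabilises vessels, read 8.68, 8.41 and 8.64 in basal WT and 8.0, 8.22, 7.75 and 8.02 after TAC. It fell 1.49-fold in WT (adjusted p = 0.00572) and 1.73-fold in KO (adjusted p = 0.00136), with no overlap between TAC and basal arrays in either genotype. Ptprb, the phosphatase VE-PTP that holds Tie2 signalling in check, fell 1.46-fold in WT (adjusted p = 0.0139) and 1.39-fold in KO (adjusted p = 0.0329). Its other kept probe set was lower by -0.88 and -0.86 (adjusted p = 3.54e-04 and 5.97e-04), and the KO call on the brighter one ended without any 1 of basal KO 1, basal KO 2, TAC KO 2 or TAC KO 4 (adjusted p = 0.0536 to 0.115).

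Egfl7, a secreted factor of the vessel matrix, has 4 kept probe sets, and all 4 were lower in both genotypes. On the brightest, an x_at probe set, it fell 1.32-fold in WT (adjusted p = 0.0344) and 1.51-fold in KO (adjusted p = 0.00606). The WT call ended without any 1 of basal WT 1, basal WT 2 or TAC WT 4 (adjusted p = 0.0621 to 0.165). Emcn (endomucin, a surface sialomucin) differed by 0.03 in WT and -0.22 in KO. Clec14a, a surface lectin, differed by 0.19 and 0.13. Mmrn2, a matrix protein that binds Clec14a, differed by 0.12 and -0.13 on its brightest probe set. None of these differences passed (adjusted p from 0.222 to 0.850), although 2 dimmer Mmrn2 probe sets were called lower in KO (log2 -0.63 and -0.46, adjusted p = 0.0214 and 0.0167).

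**Figure D2:**
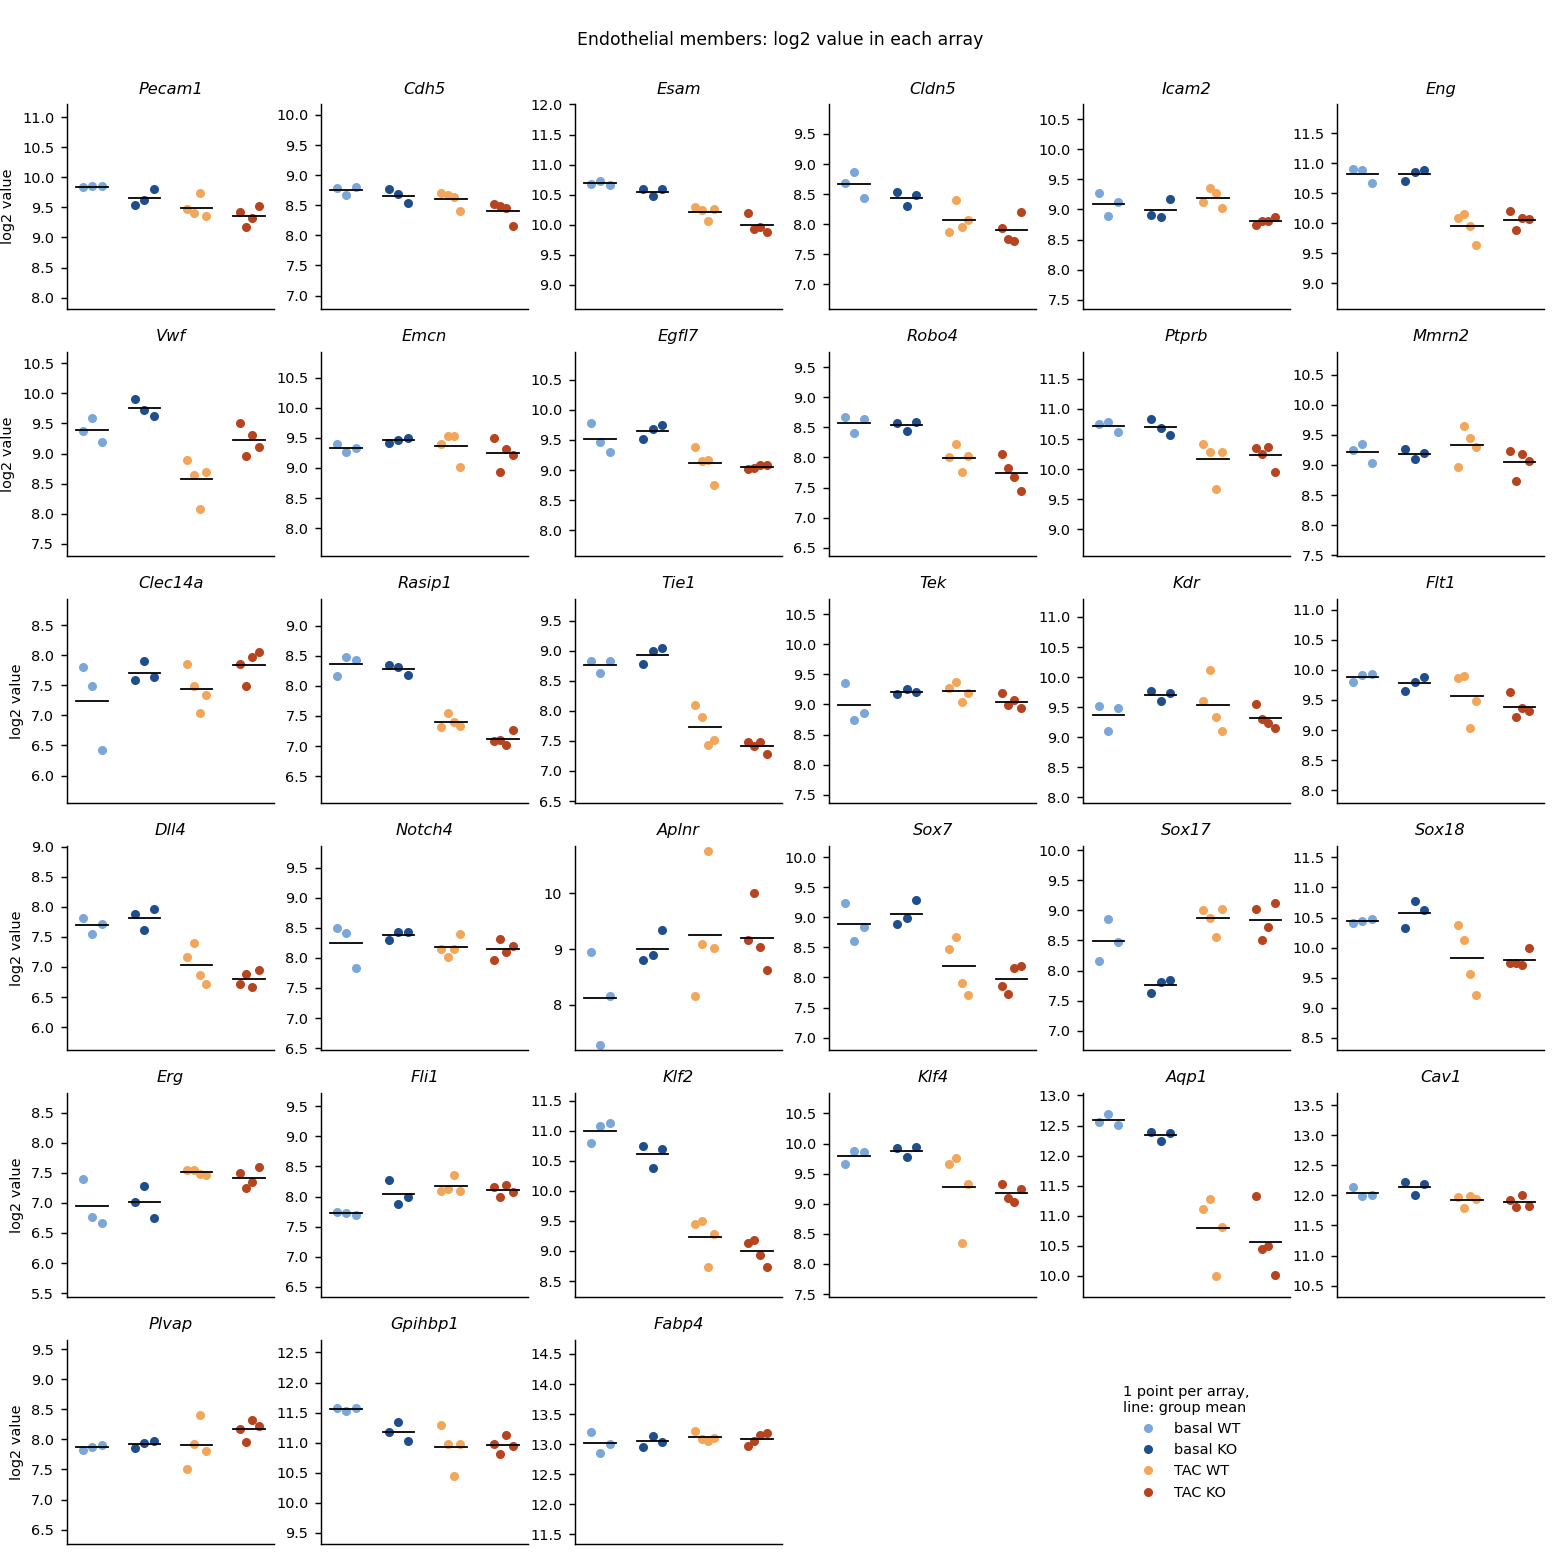
Log2 signal of the endothelial genes on each of the 14 arrays, by group, one point per array and a bar at the group mean. For Klf2, Aqp1, Tie1 and Rasip1 all 8 TAC arrays lie below all 6 basal arrays.

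Of the 4 receptor tyrosine kinases, Tie1 fell in both genotypes and Tek, Kdr and Flt1 were called in neither. Tie1 (chr4:118471191-118489849), an orphan partner of the angiopoietin receptor, read 8.83, 8.62 and 8.82 in basal WT and 8.09, 7.90, 7.44 and 7.52 after TAC. KO hearts gave 8.77, 8.99 and 9.04 in basal hearts and 7.48, 7.41, 7.48 and 7.29 after TAC. The 4 TAC KO arrays lay close together, and the TAC WT arrays spread more widely. Tie1 was lower by log2 -1.02 in WT (SE 0.15, adjusted p = 2.44e-04) and -1.52 in KO (SE 0.15, adjusted p = 7.41e-05). The responses differed by -0.50 between the genotypes (95% interval -0.95 to -0.05, unadjusted p = 0.0314), which did not pass (adjusted p = 0.598).

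Tek (chr4:94739086-94874976), the angiopoietin receptor Tie2, read 9.35, 8.75 and 8.86 in basal WT and 9.27, 9.37, 9.04 and 9.19 after TAC. In KO it read 9.17, 9.26 and 9.20 in basal hearts and 9.19, 8.99, 9.07 and 8.94 after TAC. The TAC and basal values overlapped in both genotypes, with differences of 0.23 in WT (adjusted p = 0.164) and -0.16 in KO (adjusted p = 0.337). Basal WT 1 is the high basal value, and without it Tek was called higher in WT (adjusted p = 0.0135), as it was with array weights (log2 0.36, adjusted p = 0.0205).

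Kdr (chr5:75932827-75979072), the main signalling receptor for VEGF, read 9.52, 9.10 and 9.49 in basal WT and 9.61, 10.11, 9.34 and 9.11 after TAC. The KO arrays gave 9.77, 9.61 and 9.73 in basal hearts and 9.56, 9.31, 9.24 and 9.16 after TAC. The WT values overlapped (log2 0.17, adjusted p = 0.473), and in KO every TAC array lay below every basal array without passing (log2 -0.39, adjusted p = 0.122). The KO difference passed without TAC WT 2 (adjusted p = 0.0495), an array that enters it only through the shared spread. With array weights Kdr was called in both genotypes and in opposite directions, higher in WT (log2 0.52, adjusted p = 0.0281) and lower in KO (log2 -0.41, adjusted p = 0.0427). The WT call leans on TAC WT 2, which holds the highest Kdr value (10.11) and a weight of 3.52. TAC WT 1, TAC WT 3 and TAC WT 4 had weights of 0.75, 0.19 and 0.46. The difference of responses was called for 0 members under that setting. Over all genes it was then called for 166, 31.3% of them higher, where the fit without weights called 0.

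Flt1, the VEGF receptor that traps ligand, was lower by -0.31 in WT (adjusted p = 0.155) and -0.39 in KO (adjusted p = 0.0868) on its brightest probe set, neither passing. One of its dimmer probe sets was called lower in both genotypes (log2 -0.57 and -0.63, adjusted p = 0.0237 and 0.0168) and another in KO (log2 -0.78, adjusted p = 0.019). The KO difference on the brightest one passed without TAC WT 3 (adjusted p = 0.0205) and with array weights (adjusted p = 0.00942).

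Dll4 was the 1 gene of the 3 in Notch and apelin signalling that fell. Dll4 (chr2:119325784-119335666), the Notch ligand of arterial and tip cells, read 7.81, 7.54 and 7.72 in basal WT and 7.17, 7.40, 6.86 and 6.71 after TAC. In KO, its values were 7.88, 7.61 and 7.96 in basal hearts and 6.71, 6.88, 6.67 and 6.95 after TAC. No TAC array reached a basal array, and Dll4 fell 1.57-fold in WT (log2 -0.66, SE 0.16, adjusted p = 0.00441) and 2.02-fold in KO (log2 -1.01, adjusted p = 5.48e-04). Its second probe set was lower by -0.70 and -0.79 (adjusted p = 0.00162 and 0.00116).

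Notch4, an endothelial Notch receptor, differed by -0.07 in WT and -0.24 in KO, with neither passing (adjusted p = 0.707 and 0.207). Aplnr, the apelin receptor, had the widest spread of the 33 genes (pooled SD 0.78). It read 8.94, 7.28 and 8.16 in basal WT and 8.15, 9.10, 10.76 and 9.02 after TAC, and TAC WT 3 is the highest of these. Its difference was 1.13 in WT (SE 0.52, adjusted p = 0.0837) and 0.19 in KO (adjusted p = 0.780). The WT difference passed without basal WT 1 or TAC WT 1 (adjusted p = 0.0202 to 0.0438), while its dimmer probe set gave -0.00 in WT.

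The 7 transcription factors moved in both directions: in WT 3 fell and 2 rose, and in KO 4 fell and 1 rose. Klf2 (chr8:72319062-72321654), a factor that endothelial cells make in response to laminar flow, read 10.80, 11.07 and 11.13 in basal WT and 9.45, 9.49, 8.73 and 9.28 after TAC. KO hearts gave 10.74, 10.38 and 10.69 in basal hearts and 9.14, 9.18, 8.94 and 8.74 after TAC. The gap between the lowest basal and the highest TAC array was wide in both genotypes. Klf2 was lower by log2 -1.76 in WT (SE 0.18, adjusted p = 5.20e-05) and -1.60 in KO (SE 0.18, adjusted p = 1.11e-04).

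Klf4, its relative with a similar flow response, read 9.66, 9.87 and 9.86 in basal WT and 9.66, 9.76, 8.35 and 9.32 after TAC, so that TAC WT 1 equalled a basal array. It differed by -0.52 in WT (adjusted p = 0.0957) and fell by 0.71 on the log2 scale in KO (adjusted p = 0.0353). The other Klf4 probe set was lower in both genotypes (log2 -1.41 and -1.24, adjusted p = 0.00224 and 0.00595). The KO call ended without any 1 of 6 arrays, namely basal KO 1, basal KO 2, basal KO 3, TAC KO 2, TAC KO 3 and TAC KO 4 (adjusted p = 0.0589 to 0.0918), and the WT difference passed without TAC WT 1 or TAC WT 2 (adjusted p = 0.0362 to 0.0449).

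Sox7 and Sox18, which with Sox17 form the SOX group of vessel development, fell in both genotypes. Sox7 (chr14:63943706-63950732) read 9.24, 8.61 and 8.83 in basal WT and 8.48, 8.68, 7.91 and 7.70 after TAC. The TAC WT values were widely spread, with the highest of them inside the basal range, whereas in KO the 4 TAC arrays (7.85, 7.73, 8.15 and 8.19) lay below all 3 basal ones (8.88, 8.99 and 9.28). Sox7 fell 1.63-fold in WT (adjusted p = 0.0217) and 2.10-fold in KO (adjusted p = 0.00297). The WT call ended without any 1 of basal WT 1, TAC WT 3 or TAC WT 4 (adjusted p = 0.0541 to 0.102).

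Sox18 read 10.41, 10.44 and 10.47 in basal WT and 10.37, 10.13, 9.57 and 9.22 after TAC. It fell 1.53-fold in WT (adjusted p = 0.0307) and 1.71-fold in KO (adjusted p = 0.0130). The basal WT arrays agreed closely and the TAC WT arrays ranged widely below them. The WT call ended without any 1 of basal WT 1, basal WT 2, basal WT 3, TAC WT 3 or TAC WT 4 (adjusted p = 0.0633 to 0.0790), and the KO call without basal KO 2 (adjusted p = 0.0557). With array weights the WT calls of Sox7 (adjusted p = 0.148) and Sox18 (adjusted p = 0.0635) ended.

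Sox17 (chr1:4490928-4497426) gave opposite readings on its 2 probe sets. On the brighter, an x_at probe set, it read 7.62, 7.81 and 7.84 in basal KO and 9.03, 8.50, 8.72 and 9.13 after TAC, and rose 2.13-fold (log2 1.09, adjusted p = 9.01e-04); the WT difference was 0.38 (adjusted p = 0.104) and passed without basal WT 2 or TAC WT 3 (adjusted p = 0.0360 to 0.0497) and with array weights (log2 0.41, adjusted p = 0.0364). On the other probe set Sox17 was lower in WT (log2 -1.07, adjusted p = 0.00297) and differed by -0.55 in KO (adjusted p = 0.0771). The direction for Sox17 thus turns with the probe set in both genotypes.

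Erg, an ETS factor that maintains endothelial identity, rose in WT by 0.57 on the log2 scale (1.48-fold, adjusted p = 0.0141) and differed by 0.41 in KO (adjusted p = 0.0654). Its second probe set, at a mean of 5.81 just above the filter value of 5.75, went the other way (log2 -0.57 and -0.32, adjusted p = 0.00151 and 0.0377). The WT call ended without basal WT 2 or basal WT 3 (adjusted p = 0.0639 to 0.0751), and the KO difference passed without basal WT 1 or basal KO 2 (adjusted p = 0.0233 to 0.0398).

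Fli1 (chr9:32422204-32543432), a related ETS factor that blood cells also make, read 7.75, 7.72 and 7.69 in basal WT and 8.10, 8.12, 8.36 and 8.09 after TAC. In KO it read 8.28, 7.87 and 8.0 in basal hearts and 8.16, 8.0, 8.19 and 8.07 after TAC. The WT groups did not overlap and the KO groups did. Fli1 rose 1.36-fold in WT (log2 0.45, adjusted p = 0.00520), and the KO difference was 0.06 (adjusted p = 0.701). Its second probe set was higher in both genotypes, by 1.68 and 1.5 (adjusted p = 3.8e-05 and 1.27e-04).

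**Figure D3:**
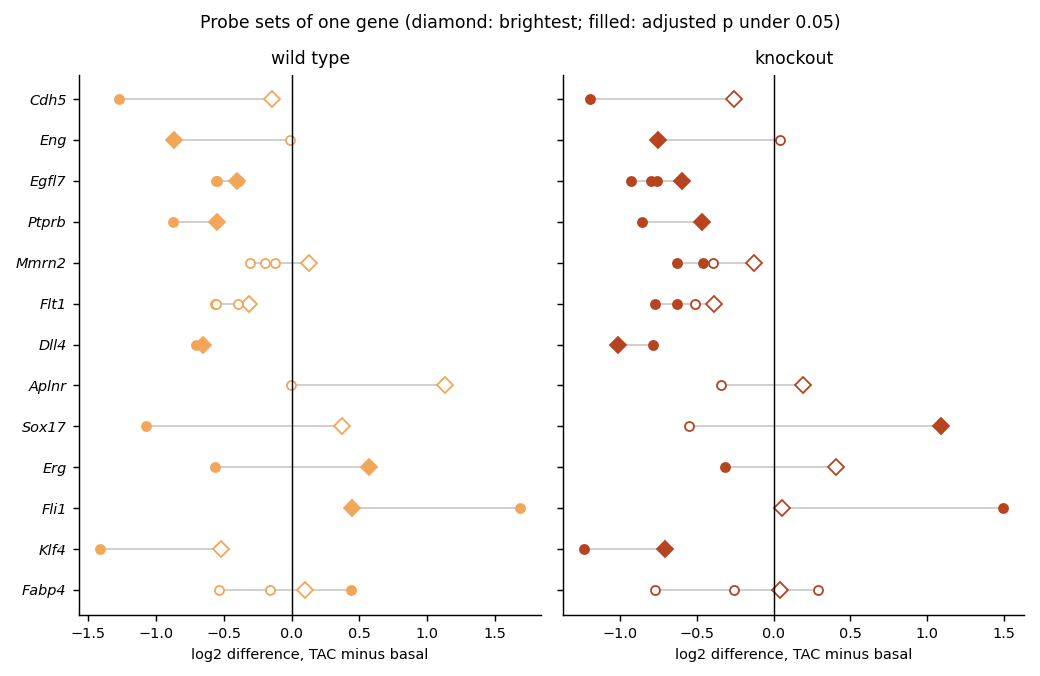
Log2 difference of TAC against basal hearts (x axis) for every kept probe set of the 13 endothelial genes that have over 1, in WT and KO; filled points were called. The probe sets of Sox17 and Erg lie on opposite sides of 0, and those of Egfl7, Ptprb and Dll4 all lie below it.

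Across the 33 genes, 20 rest on 1 kept probe set and 13 on several. In 6 of those 13 (Eng, Mmrn2, Aplnr, Sox17, Erg and Fabp4) the probe sets differed in sign in at least 1 genotype.

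Of the 5 transport and caveolae genes, 2 fell in WT and 1 in KO. Aqp1 (chr6:55336299-55348555), the water channel of capillary endothelium, read 12.55, 12.69 and 12.51 in basal WT and 11.12, 11.28, 10.00 and 10.82 after TAC. The KO arrays gave 12.39, 12.24 and 12.38 in basal hearts and 11.33, 10.45, 10.50 and 10.01 after TAC. Basal arrays of each genotype lay close together and TAC arrays spread over more than 1 log2 unit below them. Aqp1 fell 3.43-fold in WT (log2 -1.78, SE 0.30, adjusted p = 5.96e-04) and 3.40-fold in KO (log2 -1.76, adjusted p = 8.59e-04), a difference in response of 0.01 (95% interval -0.89 to 0.92).

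Gpihbp1 (chr15:75596630-75598213), which carries lipoprotein lipase to the capillary surface, read 11.57, 11.52 and 11.57 in basal WT and 11.30, 10.98, 10.45 and 10.98 after TAC. In KO, its values were 11.17, 11.34 and 11.03 in basal hearts and 10.98, 10.81, 11.13 and 10.94 after TAC. The basal KO arrays were already below all basal WT arrays, and the KO groups overlapped. Gpihbp1 fell 1.54-fold in WT (log2 -0.63, adjusted p = 0.00646), while the KO difference was -0.21 (adjusted p = 0.284). The responses differed by 0.41 (95% interval -0.08 to 0.90, adjusted p = 0.694).

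Cav1 (the coat protein of caveolae), Plvap (the diaphragm protein of fenestrae) and Fabp4 (a fatty acid carrier, also made by fat cells) were called in neither genotype. Cav1 differed by -0.12 in WT and -0.24 in KO (adjusted p = 0.295 and 0.0506), and the latter passed without basal KO 2, TAC WT 3 or TAC KO 3 (adjusted p = 0.0379 to 0.0487). Plvap differed by 0.04 and 0.25, with TAC WT 3 the highest of its arrays at 8.40. Fabp4 differed by 0.10 and 0.04 on its brightest probe set, and a dimmer one was higher in WT (log2 0.44, adjusted p = 0.0203).

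Between the genotypes no endothelial gene was called. In basal hearts, limma called 0 of the 33 and 0 of all genes (0% in each direction); at an unadjusted p under 0.05, 3 members (Gpihbp1, Sox17 and Fli1) and 5.77% of all genes passed, and no alternative setting called a member. Hspb8 itself was not called, since its brightest probe set, the x_at one, differed by only -1.08 in basal hearts. Its other probe sets differed by -5.48 and -6.84 (limma adjusted p = 5.43e-08 each over all probe sets). The count over all genes thus missed the deleted gene. The members' median difference, KO minus WT, was 0.06, against 0.01 over all genes, and the smallest adjusted p among the members was 0.608. Sox17 was lower in basal KO by -0.73 (95% interval -1.16 to -0.31) and Fli1 higher by 0.33 (95% interval 0.08 to 0.58), neither passing. Klf2 read 10.38 to 10.74 in basal KO and 10.80 to 11.13 in basal WT, a difference of -0.40 (95% interval -0.81 to 0.02). In 4 members all KO arrays lay above all WT arrays and in 6 all lay below, where all genes give 7.46% and 6.13%.

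After TAC, limma again called 0 of the 33 between the genotypes, beside 1 gene in all (0.00816% higher and 0% lower). Hspb8 was again missed on its x_at probe set (log2 -0.595). At an unadjusted p under 0.05, 5 members (Esam, Icam2, Vwf, Rasip1 and Tie1) and 8.14% of all genes passed. The difference was below 0 in 27 members and above 0 in 6, with a median of -0.12 against -0.02 over all genes. Vwf was higher in KO by 0.64 (95% interval 0.27 to 1.0, adjusted p = 0.307) with no overlap. Icam2 read 8.74, 8.80, 8.80 and 8.88 in KO and 9.13, 9.35, 9.28 and 9.02 in WT, lower by -0.39 (95% interval -0.63 to -0.15, adjusted p = 0.341). Rasip1 was lower by -0.28 (95% interval -0.50 to -0.07, adjusted p = 0.487), also without overlap; all genes give 1.69% with all KO arrays above and 2.30% with all below. The median reach of the members' 95% intervals was 0.31 on either side. Without TAC WT 3 the difference was again below 0 in 27 members and above 0 in 6; 0 were called, 11 passed at an unadjusted p under 0.05 (16.8% of all genes did), and limma called 88 genes higher and 19 lower in all. In 2 members every KO array then lay above every WT array and in 5 below, where all genes give 5.93% and 6.06%. Of the 8 macrophage markers, 4 were then called higher in KO, and in all 8 every KO array lay above every WT array. The same held for 5 of 7 fibroblast markers, of which 0 were called. The part of these cells in the endothelial differences was not tested.

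The count after TAC depended on how arrays were weighted. With array weights, which gave TAC WT 3 a weight of 0.19, TAC WT 2 3.52 and TAC KO 3 4.73, 16 members were called: 2 higher in KO (Vwf and Plvap) and 14 lower. The same setting called 10.2% of all genes higher and 13.2% lower. Among the 14, Icam2 was lower by -0.49 (adjusted p = 0.00383), Kdr by -0.62 (adjusted p = 0.0110), Klf4 by -0.56 (adjusted p = 0.00923) and Klf2 by -0.44 (adjusted p = 0.0135). Leaving out any 1 array from the unweighted model called 0 members.

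The test of whether the TAC response differed between genotypes called 0 members and 0 genes in all (0%). At an unadjusted p under 0.05, 3 members passed (Tie1, Sox17 and Fli1), beside 7.77% of all genes. Sox17 differed by 0.71 (95% interval 0.15 to 1.28) on its brighter probe set and Fli1 by -0.39 (95% interval -0.73 to -0.06). The intervals of the 33 genes had a median reach of 0.48 on either side.

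**Figure D4:**
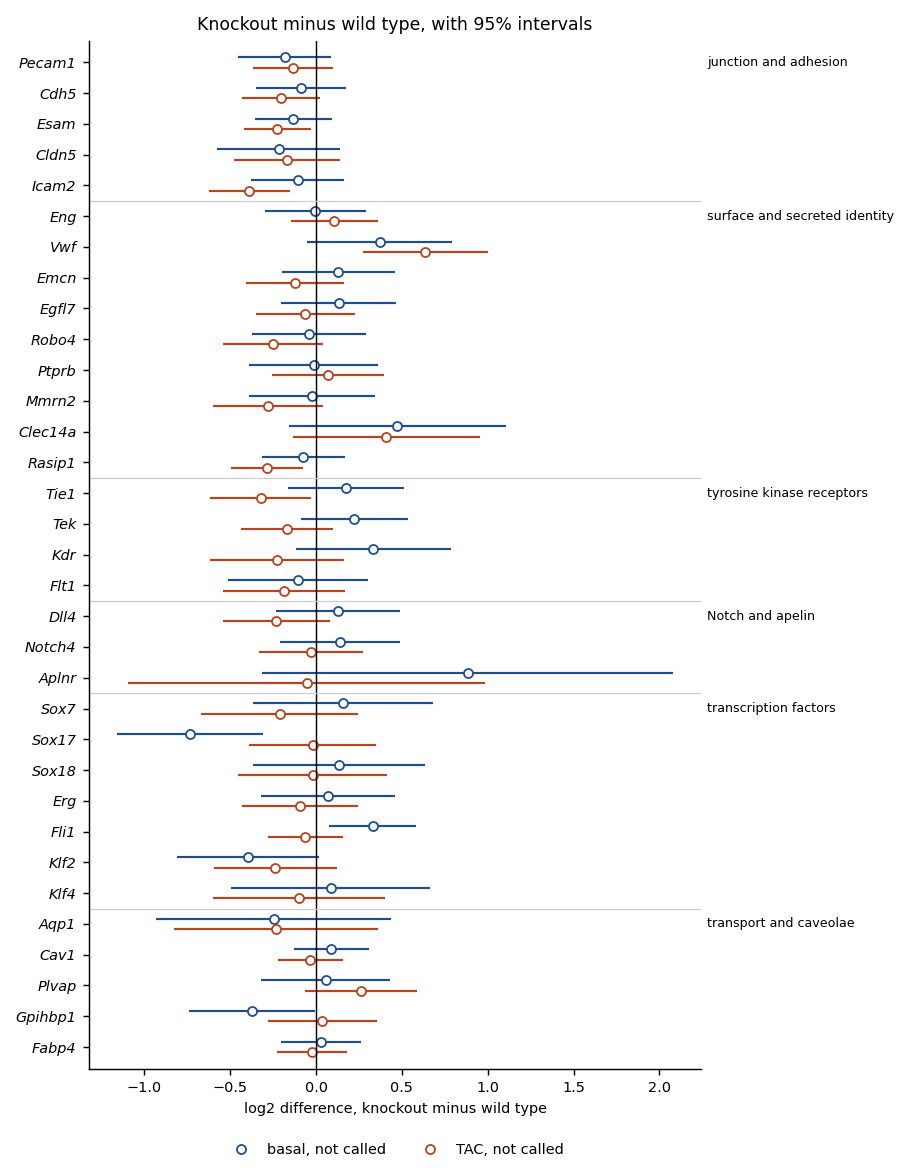
Log2 difference of KO minus WT (x axis) in basal hearts and after TAC for each of the 33 endothelial genes, with 95% intervals. All points are open because none was called; Vwf after TAC lies farthest to the right of 0 among those whose interval leaves it out.

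Of 47 further genes of endothelial signalling, 44 lay above the filter on dim signals. In WT, 14 (31.8%) rose and 9 (20.5%) fell after TAC, where 26.9% of all genes rose and 23.8% fell. In KO, 12 (27.3%) rose and 9 (20.5%) fell, where 22.7% and 21.8% of all genes did. Without TAC WT 3 these counts were 9 and 7 in WT (all genes 24% and 19.6%) and 15 and 12 in KO (25.7% and 24.4%). After quantile normalisation more fell than rose, 14 against 8 in WT and 10 against 8 in KO. Calls over all genes were then also mostly lower, with 41.1% of them higher in WT and 43.3% in KO. Among VEGF ligands and their co-receptors, Vegfb, which acts through Flt1, fell 2.73-fold in WT (log2 -1.45, SE 0.24, adjusted p = 6.28e-04) and 2.95-fold in KO (adjusted p = 6.06e-04). Vegfc, a ligand of lymphatic growth, rose 2.46-fold in WT (adjusted p = 2.37e-04) and 2.03-fold in KO (adjusted p = 0.00133). Its relative Vegfd rose at least 2.45-fold in WT and at least 2.40-fold in KO (adjusted p = 9.79e-04 and 0.00148), bounds because its basal mean lay below the filter value; a second probe set gave 0.17 and 0.36, neither passing. Vegfa, the main ligand of Kdr, differed by -0.02 in WT (adjusted p = 0.950) and -0.50 in KO (adjusted p = 0.106).

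Nrp1, a co-receptor for VEGF, read 10.35, 10.05 and 10.34 in basal WT and 11.18, 11.19, 11.5 and 11.63 after TAC. KO hearts gave 10.71, 10.89 and 10.81 in basal hearts and 11.0, 11.12, 11.14 and 11.45 after TAC. Basal KO arrays lay above basal WT arrays, and the TAC ranges overlapped. Nrp1 rose 2.19-fold in WT (adjusted p = 1.23e-04) and 1.30-fold in KO (adjusted p = 0.0446). The responses differed by -0.75 (95% interval -1.18 to -0.33, unadjusted p = 0.00211), which did not pass (adjusted p = 0.464).

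In Notch signalling, Jag1, a ligand, rose 1.93-fold in WT (adjusted p = 2.34e-04) and 2.38-fold in KO (adjusted p = 9.83e-05), while its second probe set gave -0.10 and 0.25, neither passing. Notch1, the receptor, fell 1.61-fold in WT (adjusted p = 9.15e-04) and 1.94-fold in KO (adjusted p = 2.38e-04). Elk3, an ETS-family repressor, rose 2.46-fold in WT and 2.17-fold in KO (adjusted p = 1.67e-04 and 5.84e-04) on its brightest probe set, where a second gave 0.14 and -0.18. Nos3, endothelial nitric oxide synthase, fell 1.72-fold in WT (adjusted p = 3.03e-04) and 1.52-fold in KO (adjusted p = 0.00176). Of the ligands of Tek and Aplnr, Angpt1 differed by -1.03 in WT and -0.80 in KO (SE 0.56 each), Angpt2 by 0.06 and -0.04, and Apln by -0.24 and -0.19, none passing (adjusted p from 0.132 to 0.830).

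Marker genes of other cell types moved with TAC in the same arrays. Of 8 macrophage markers, 6 were called higher in each genotype, as were 5 of 7 fibroblast markers (1 fell in WT) and all 5 proliferation genes above the filter (of 7 listed). Of 8 pericyte and smooth muscle markers, 2 rose and 1 fell in WT, and 3 rose and 1 fell in KO. Without TAC WT 3, 8 macrophage markers rose in KO, 4 pericyte and smooth muscle markers rose and 3 fell in KO, no fibroblast marker fell in WT, and the 1 cardiomyocyte call was a fall in KO. The mean over macrophage markers ran from 9.01 to 9.51 in basal arrays and from 9.57 to 11.28 after TAC. Fibroblast markers averaged 9.78 to 10.69 in basal arrays and 10.83 to 11.80 after TAC. Proliferation genes averaged 5.06 to 5.37 in basal arrays and 5.64 (TAC WT 1) to 9.44 (TAC WT 3) after TAC. Of 8 cardiomyocyte markers, 1 was called higher in WT and 0 in KO; their mean stayed between 13.84 and 14.25 on all 14 arrays. The mean over the 33 endothelial genes ran from 9.38 to 9.54 in basal arrays and from 8.97 to 9.28 after TAC. Of 3 endocardial genes above the filter, Cytl1 fell in both genotypes (log2 -2.38 in WT and -1.42 in KO, adjusted p = 0.00148 and 0.0254) and Nfatc1 rose in WT (log2 0.29, adjusted p = 0.0209); the mean of the 3 ran from 7.88 to 8.25 in basal arrays and from 6.65 to 8.01 after TAC. Of 4 lymphatic endothelial genes, Pdpn, which other cells of the heart also make, rose in both (log2 2.05 and 1.32, adjusted p = 3.67e-04 and 0.00560), and Prox1 and Flt4 fell in KO (log2 -0.83 and -0.31, adjusted p = 0.0298 and 0.0254). The lymphatic mean was 7.51 to 7.99 in basal arrays and 7.60 to 8.48 after TAC. Of 3 neutrophil genes above the filter, S100a8 and S100a9 rose in KO (log2 1.88 and 1.96, adjusted p = 0.0132 and 0.00839) and 0 were called in WT, with a mean of 5.84 to 6.74 in basal arrays and 5.90 to 8.05 after TAC. Alas2, the 1 erythroid gene above the filter, fell in both (log2 -1.17 and -1.87, adjusted p = 0.0385 and 0.00472) and, without TAC WT 3, in KO alone. Cd3e, the 1 lymphocyte gene above the filter, and Retn, 1 of 2 fat-cell genes above it, fell in WT (log2 -0.28 and -0.36, adjusted p = 0.0413 and 0.0382), calls that ended without TAC WT 3. Among defining markers of other cells, Cd3g, Cd79a, Cd79b and Ms4a1 (lymphocytes), Cxcr2 (neutrophils), Cidec (fat cells), Hba-a1 (red cells) and Aurkb lay below the filter. The part of these cells in the endothelial values was not tested.

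**Figure D5:**
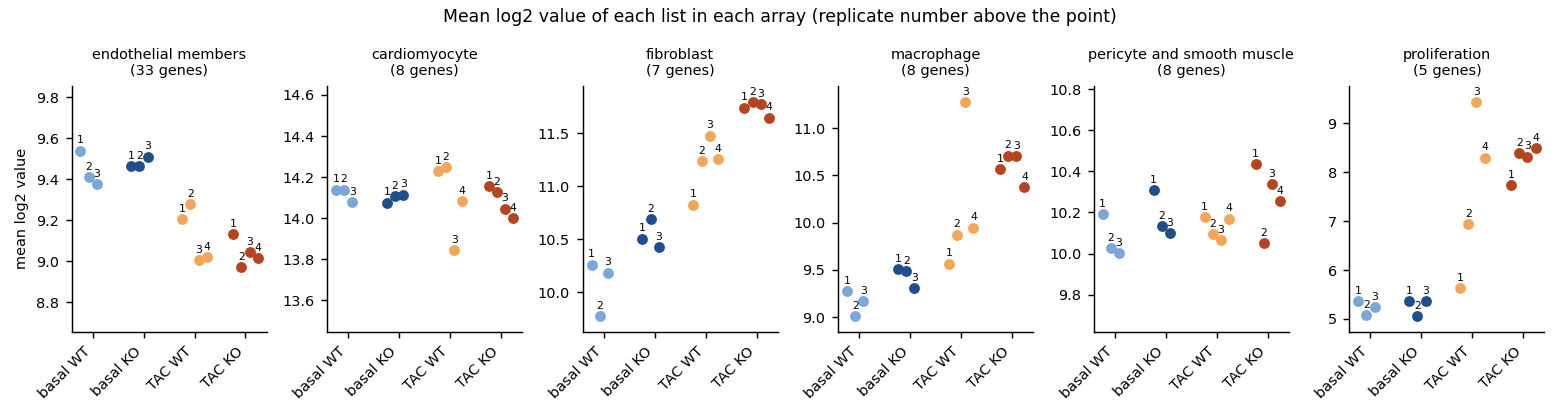
Mean log2 signal over the 33 endothelial genes and over marker lists of other cell types on each of the 14 arrays. The macrophage mean of TAC WT 3 is 11.28, above the other TAC WT arrays, and the endothelial mean is at most 9.28 in every TAC array and at least 9.38 in every basal one.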

How the data were processed

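Trizol-extracted, biotin-labelled RNA of the left ventricle, per the labels' protocols, was read on 14 arrays in 4 groups. The deposited values are log2 signals per probe set that the authors made with RMA, per the submitters' processing notes; the sources used here name no version and do not say whether all arrays were normalised in 1 run. Groups came from sample titles. Gene symbols came from the platform annotation, updated through RefSeq (GRCm38.p6). A probe set was kept above the median of the table (5.75) in at least 3 arrays, and each gene was represented by the brightest of its kept probe sets (12260 genes).

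All arrays and groups were fitted in 1 model with limma 3.58.1 in R 4.3.3 (10 residual and 3.43 prior degrees of freedom), with Benjamini-Hochberg adjustment over all genes. Adjusted p-values of single probe sets were adjusted over all kept probe sets. The fit was tested on simulated data with independent noise, the same spread for a gene in every array, and few genes changed. These data hold an outlying array and many genes called after TAC, so the simulation cannot show how the fit performs under those conditions. Alternatives changed the filter, the probe set, the normalisation, the arrays, the prior, the weights, the replicate block and the fold threshold; the second brightest probe set, and the counts of markers and of non-overlapping groups without TAC WT 3, were added after seeing the data. Filter and probe sets were held when an array was left out.

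The members and gene lists were chosen with earlier results of these data known. All 33 members are named; of the 47 further genes, the 6 called with the smallest p in each comparison of TAC with basal, plus Vegfa, Angpt1, Angpt2, Apln and Nos3. Replicate numbers were checked for pairing, and deviations of same-numbered arrays correlated at -0.16 to 0.59. The highest values were those of TAC WT 1 with TAC KO 1 (0.59) and TAC WT 4 with TAC KO 4 (0.49). TAC WT 2 with TAC KO 2 gave -0.06 and TAC WT 3 with TAC KO 3 gave -0.07. Arrays were not taken as pairs, and whether same-numbered TAC arrays share more than the number was not tested. Protein sequences and raw intensities were not used here.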

Additional observations from a re-analysis of the deposited data

Results flagged for a closer look

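Of 68 groups of 4 arrays checked, 2 held an array far from the others, and chance gives about 1 in 20. Sox18 read 10.00 in TAC KO 4 and 9.72 to 9.75 in the other TAC KO arrays. Fli1 read 8.36 in TAC WT 3, the array that also stands highest in macrophage markers, and 8.09 to 8.12 in the other TAC WT arrays. Whether cells other than endothelium bear on the Fli1 value was not tested.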

How the results depend on the processing

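Of 34 calls of endothelial genes after TAC, 14 held in all 27 settings: those of Rasip1, Tie1, Dll4, Klf2 and Aqp1 in both genotypes, of Vwf and Gpihbp1 in WT, and of Robo4 and Sox7 in KO. Among these genes only Dll4 has over 1 kept probe set. Settings that swap or average kept probe sets leave the values of the rest unchanged, so those settings put no test to them. The other 20 calls were lost in at least 1 setting. With a fold of at least 1.5 required as well, 11 members and 15 further genes were called in WT, all 11 members lower. The share of all genes under that rule was not counted, so the 11 cannot be set against it. With array weights, 16 members and 11 further genes were called between the genotypes after TAC, and 1 further gene in the difference of responses. Over all genes that setting called 2880 (43.6% of them higher) and 166 (31.3%), where the fit without weights called 1 and 0. The cause of these calls was not tested. Leaving out 1 array gave 14 to 20 members in WT and 12 to 19 in KO, and 16 to 24 and 13 to 27 further genes, the 13 without basal KO 2. The 19 and the 27 came without TAC WT 3, a fit that called 25.7% of all genes higher and 24.4% lower in KO. With all arrays these shares were 22.7% and 21.8%. The share was not counted for the other arrays left out, so the ranges cannot be set against it.

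Directions reversed with the second brightest probe set for Eng (0.042), Sox17 (-0.55) and Elk3 (-0.18) in KO, for Erg in WT (-0.57) and KO (-0.32), and for Sox17 (-1.07), Cav2 (-0.12), Jag1 (-0.10) and Map2k5 (0.10) in WT. Leaving out probe sets that can bind other transcripts gave the same 2 values for Sox17. Ets1 in KO was -0.11 with the mean of its probe sets. Changes of sign in values not called on either side were not counted.

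With the replicate number as a block, although the numbers were only shared, 15 members were called in WT (2 higher, 13 lower) and 16 in KO (1 and 15), and 20 and 16 further genes. The share of all genes called with that block was not counted, so these counts cannot be set against it. Centring each array on the members moved the median of all genes to 0.07 in WT and 0.22 in KO and left 16 and 12 members called. Over all genes 6214 were called in WT (53.1% of them higher) and 5451 in KO (51.0%). After quantile normalisation these were 6252 (41.1%) and 5715 (43.3%), with 20 and 19 members called. With arrays centred on their medians they were 6027 (62.8%) and 5307 (53.7%), with 15 and 16 members called. Centred on the members they were 5076 (61.1%) and 4948 (81.5%), with 16 and 12 members called. A fit on the arrays of a comparison alone has no value for the difference of responses, which uses all arrays.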
